A study of Mus musculus with 6 samples.

Results

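The importins carry proteins into the nucleus, and the genes described here are the importin alpha adaptors Kpna1, Kpna2, Kpna3, Kpna4 and Kpna6 and the importin beta receptor Kpnb1. They were chosen by symbol and make up 6 of the 20325 genes listed for each library. The RNA came from neural stem cells of mice (mixed 129/Black 6 strain) at postnatal day 4. All animals carried a doxycycline-inducible cassette of Oct4, Sox2, c-Myc and Klf4 (Stemcca), homozygous at ColA1, and 1 copy of the transactivator rtta at Rosa26, so both populations share these alleles. The cells received doxycycline until day 7, were fixed and permeabilised, and were sorted by antibody into Nanog+E-cadherin+ cells (N+E+, n = 3 libraries) and Nanog+E-cadherin- cells (N+E-, n = 3 libraries). The comparison asks how Nanog-positive reprogramming cells with and without the adhesion protein E-cadherin differ, and no library of uninduced cells or of established pluripotent cells was analysed here. The set was proposed because Kpna2 differed between the populations in these same libraries, so the values of the 6 genes in that comparison are a description and carry no test.

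In classical nuclear import an importin alpha binds the nuclear localisation signal of a cargo protein, importin beta (Kpnb1) binds the alpha subunit and takes the complex through the nuclear pore, and the GTPase Ran, when loaded with GTP, releases the cargo inside. The exportin Cse1l then returns the alpha subunits to the cytoplasm. The alpha subunits differ in the cargoes they prefer: Kpna2 is the abundant form of mouse embryonic stem cells and a carrier of Oct4, and a change from Kpna2 to Kpna1 has been described when such cells become neural. Kpna2 is also a gene of the late cell cycle, and importins hold back spindle factors such as Tpx2 until Ran frees them in mitosis.

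Promoter sequences were compared because many genes of late cell cycle carry a pair of known elements, the CCAAT box and the cell cycle homology region (CHR). The 300-base windows, from 250 bases before to 50 bases after the annotated start, are from RefSeq on GRCm38.p6, another build than that of the expression files, and entries were matched by symbol for Kpna2, Kpna4 and Kpnb1. They are written 5′ to 3′ on the strand of the gene, and capitals mark CCAAT boxes (CCAAT or, on the other strand, ATTGG) and CHR letters (TTTGAA or TTCGAA on either strand, the first reading TTCAAA on the other strand). The windows are chr11:106999476-106999775, minus strand, for Kpna2, chr3:69127043-69127342, minus strand, for Kpna4 and chr11:97187843-97188142, minus strand, for Kpnb1.
Kpna2: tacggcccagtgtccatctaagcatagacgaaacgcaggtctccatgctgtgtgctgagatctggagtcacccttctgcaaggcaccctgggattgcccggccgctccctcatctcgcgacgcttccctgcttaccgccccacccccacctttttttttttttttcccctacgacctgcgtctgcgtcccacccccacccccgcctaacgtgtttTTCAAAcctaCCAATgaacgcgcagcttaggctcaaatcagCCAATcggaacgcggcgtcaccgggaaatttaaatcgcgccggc
Kpna4: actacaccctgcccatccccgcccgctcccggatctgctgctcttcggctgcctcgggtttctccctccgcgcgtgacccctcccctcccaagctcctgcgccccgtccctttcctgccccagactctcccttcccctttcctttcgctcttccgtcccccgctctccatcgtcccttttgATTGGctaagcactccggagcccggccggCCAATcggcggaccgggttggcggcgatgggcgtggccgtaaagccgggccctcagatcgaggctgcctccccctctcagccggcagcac
Kpnb1: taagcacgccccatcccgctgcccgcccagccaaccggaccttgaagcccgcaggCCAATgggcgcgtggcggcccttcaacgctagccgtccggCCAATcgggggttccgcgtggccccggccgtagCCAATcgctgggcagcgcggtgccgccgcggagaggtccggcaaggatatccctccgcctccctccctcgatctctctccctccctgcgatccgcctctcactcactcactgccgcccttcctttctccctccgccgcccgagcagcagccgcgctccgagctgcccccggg
The Kpna2 window held 2 CCAAT boxes and 1 CHR, the latter starting at base 216 of the window and the boxes at bases 226 and 257. Kpna4 held 2 CCAAT boxes and 0 CHR letters, and Kpnb1 3 CCAAT boxes and 0 CHR letters. Of all 32851 promoter windows of this length, 37.4% held a CCAAT box, 19.2% a CHR and 7.53% both. A match of letters is a description of the window and not a binding site.

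Kpna2 was the most abundant importin alpha mRNA in all 6 libraries, and it was 2.60-fold higher in N+E+ cells. On the authors' TPM scale (transcript abundance scaled to a fixed library total), which corrects for gene length and so lets genes be set side by side, Kpna2 stood at 370, 492 and 455 TPM in N+E+ replicates 1 to 3 and at 145, 190 and 212 TPM in N+E- replicates 1 to 3. Every N+E+ library lay above every N+E- library, and the means were 439 ± 62.5 and 183 ± 34.2 TPM (SD, n = 3 each). Among all 20325 genes ordered by TPM, Kpna2 ranked between 272 and 377 in the N+E+ libraries and between 713 and 1013 in the others. For the comparison of 1 gene between libraries, CPM values (counts scaled to library size, with TMM factors) were used. Kpna2 stood at 575, 466 and 472 CPM in N+E+ replicates 1 to 3 and at 210, 181 and 190 CPM in N+E- replicates 1 to 3. Both groups were narrow, with a within-group SD of 0.14 on the log2 CPM scale. The log2 fold change of N+E+ over N+E- was 1.38 ± 0.22 (SE) in edgeR's fit with group as the only term and 1.38 ± 0.13 with the replicate number as a block. Within equal replicate numbers Kpna2 was 2.74-fold, 2.58-fold and 2.48-fold higher. In bulk libraries a larger share of cells with much Kpna2 RNA and more Kpna2 RNA per cell cannot be told apart.

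**Figure D1:**
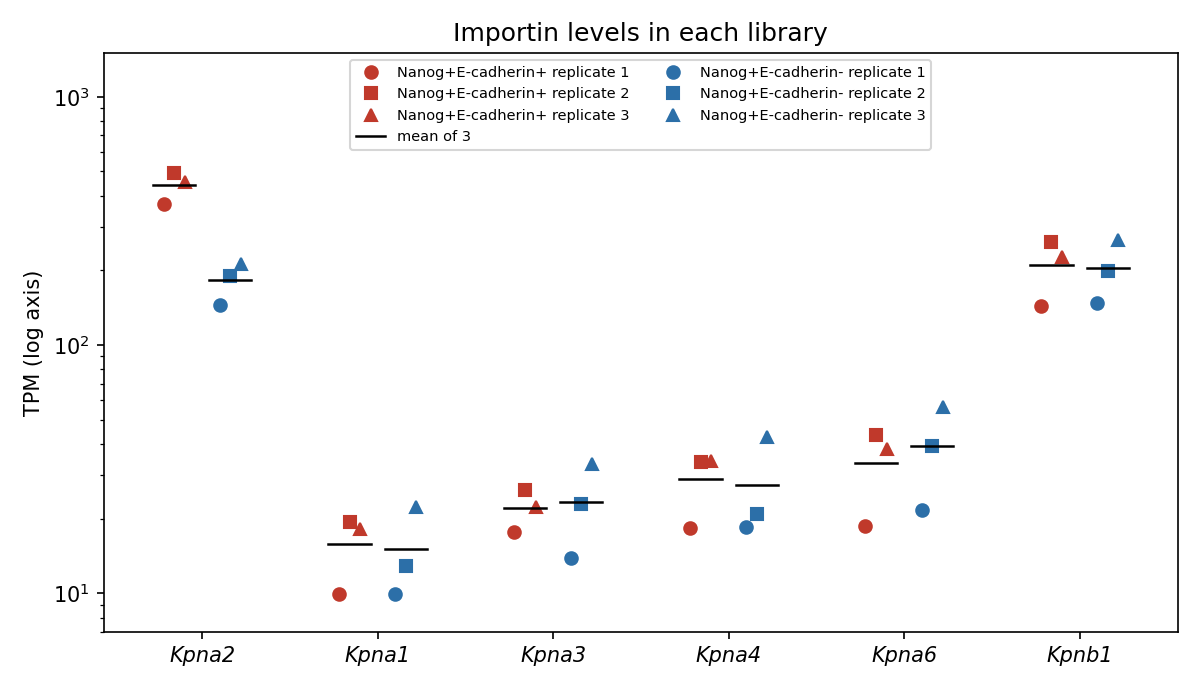
TPM (log axis) of the 6 importin genes in each library, with the N+E+ libraries in red, the N+E- libraries in blue, replicate numbers as symbols and the mean of 3 as a line. Kpna2 is the one gene of the 6 whose red and blue points do not overlap, at 370 to 492 against 145 to 212 TPM.

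The other alpha subunits were present at far lower mRNA levels, and their libraries overlapped between the populations. Kpna1, the form described as rising in neural differentiation, was the lowest of the 5. It stood at 31.0, 36.6 and 37.6 CPM in N+E+ replicates 1 to 3 and at 28.7, 24.6 and 40.1 CPM in N+E- replicates 1 to 3, with N+E- replicate 3 the highest of all. The log2 fold change of Kpna1 was 0.17 ± 0.27 (SE).

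Kpna3 and Kpna4 are close relatives within the family. Kpna3 stood at 56.7, 51.2 and 48.2 CPM in N+E+ replicates 1 to 3 against 41.9, 45.1 and 61.4 CPM, and Kpna4 at 52.9, 59.3 and 65.8 CPM against 49.5, 36.8 and 70.9 CPM. For both genes the lowest and the highest value were in N+E- libraries, so the N+E+ range lay inside the other. Their log2 fold changes were 0.07 ± 0.23 and 0.18 ± 0.28 (SE), and that of Kpna3 was -0.01 on the log2(TPM + 1) scale. Kpna6, a relative of Kpna1, stood at 82.9, 117.7 and 112.8 CPM against 89.4, 106.6 and 143.7 CPM, a log2 fold change of -0.12 ± 0.26 (SE). It was 0.03 without N+E+ replicate 1 and 0.10 without N+E- replicate 3, so its side of 0 rested on single libraries.

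Kpnb1, the import receptor that every alpha subunit needs, was the second most abundant member on average. It stood at 655, 724 and 692 CPM in N+E+ replicates 1 to 3 and at 629, 558 and 703 CPM in N+E- replicates 1 to 3. The groups overlapped, and the log2 fold change was 0.13 ± 0.23 (SE). The mean TPM over all 6 libraries ordered the members as Kpna2 (311), Kpnb1 (207), Kpna6 (36.3), Kpna4 (28.1), Kpna3 (22.7) and Kpna1 (15.5). The ranges over the 6 libraries overlapped between Kpna2 (145 to 492 TPM) and Kpnb1 (143 to 266 TPM), and among Kpna6 (18.7 to 56.3 TPM), Kpna4 (18.4 to 42.8 TPM), Kpna3 (13.95 to 33.1 TPM) and Kpna1 (9.91 to 22.4 TPM). Kpnb1 lay clear of those 4. Within N+E+ libraries Kpna2 exceeded Kpnb1, at 1.90 to 2.59 times its TPM. In N+E- libraries the 2 genes were nearly level, at 0.799 to 0.987.

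**Figure D2:**
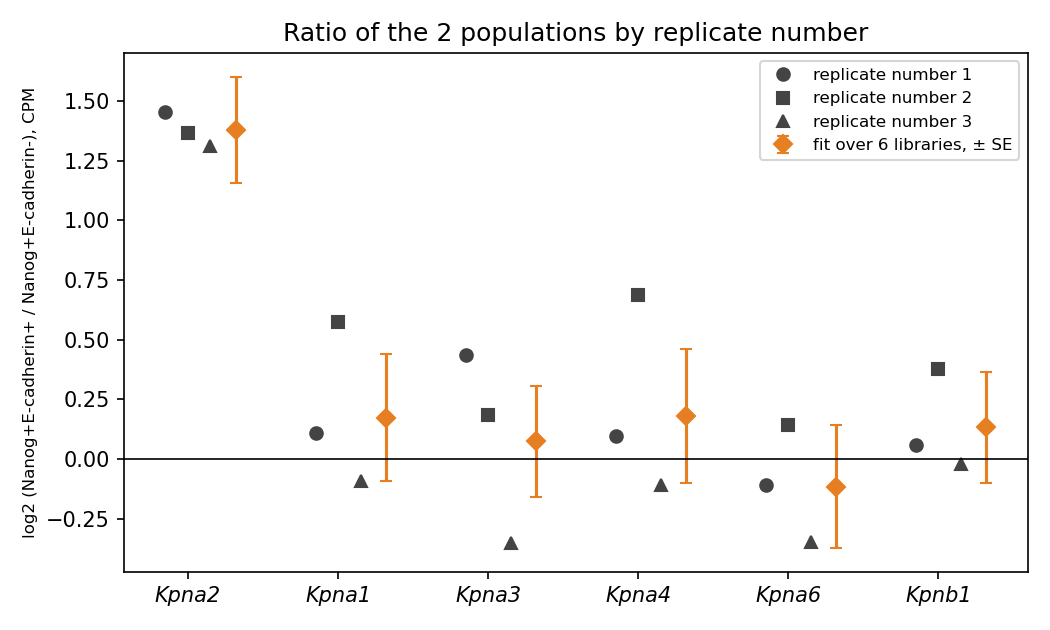
log2 ratio of N+E+ to N+E- CPM for each importin gene, by replicate number (dark symbols) and as fitted over the 6 libraries (orange, ± SE). The 3 ratios of Kpna2 lie between 1.31 and 1.45, while the ratios of the other 5 genes lie on both sides of 0.

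The pairs of equal replicate number differed little for Kpna2 and more for the other members. In the pair numbered 2 the log2 ratios of Kpna1, Kpna3, Kpna4, Kpna6 and Kpnb1 were 0.58, 0.18, 0.69, 0.14 and 0.38, all above 0. In the pair numbered 3 all 5 were below 0, at -0.09, -0.35, -0.11, -0.35 and -0.02. The pair numbered 1 was mixed, from -0.11 for Kpna6 to 0.44 for Kpna3. Kpna2 alone among the members kept the same side in the 3 pairs, and 18.9% of the 13460 genes tested did so upward.

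Of the 6 members, all of which passed the filter on low counts, 1 (Kpna2) had libraries that did not overlap, where 3.74% of the 13460 genes were higher without overlap. With group as the only term, 0 of 6 passed edgeR's quasi-likelihood test at an adjusted p of 0.05, as did 0 of all 13460 genes (a share of 0%), while 1 of 6 had an unadjusted p under 0.05, as did 1.08% of all genes on the higher side. With the replicate block 1 of 6, Kpna2, passed on the higher side, against 0.215% of all genes. Without a block, DESeq2's Wald test called 1 of 6, again Kpna2, and 14 of all 18246 genes (5340 of them without an adjusted p). limma-voom called 0 of 6 and 0 of all 13460 genes. Kpna2 was chosen with these calls known, so the counts are not evidence about it.

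The makeup of the alpha subunit mRNA pool differed between the populations. Kpna2 made up 85.1%, 80.0% and 80.1% of the summed TPM of the 5 alpha genes in N+E+ replicates 1 to 3. In N+E- replicates 1 to 3 its share was 69.4%, 66.5% and 57.9%. The groups did not overlap, and the means were 81.7 ± 2.92% and 64.6 ± 5.99% (SD, n = 3 each). Each of the other 4 genes had a smaller share in every N+E+ library than in any N+E- library. Kpna1 made up 2.88 ± 0.506% against 5.12 ± 0.859% of the pool, and Kpna6, the largest of the 4 in the N+E- group, 6.04 ± 1.51% against 13.1 ± 2.55% (SD, n = 3 each). These shares must add to 100%, so a larger share of Kpna2 lowers the others, and the levels above did not differ in this way. The share of Kpna2 itself largely follows from the difference for which it was chosen. The summed TPM of the 4 genes was 100.2 ± 31.1 against 104.8 ± 45.9, with overlap, while the sum of all 5 was 540 ± 93.4 against 287 ± 78.9 without overlap (SD, n = 3 each).

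**Figure D3:**
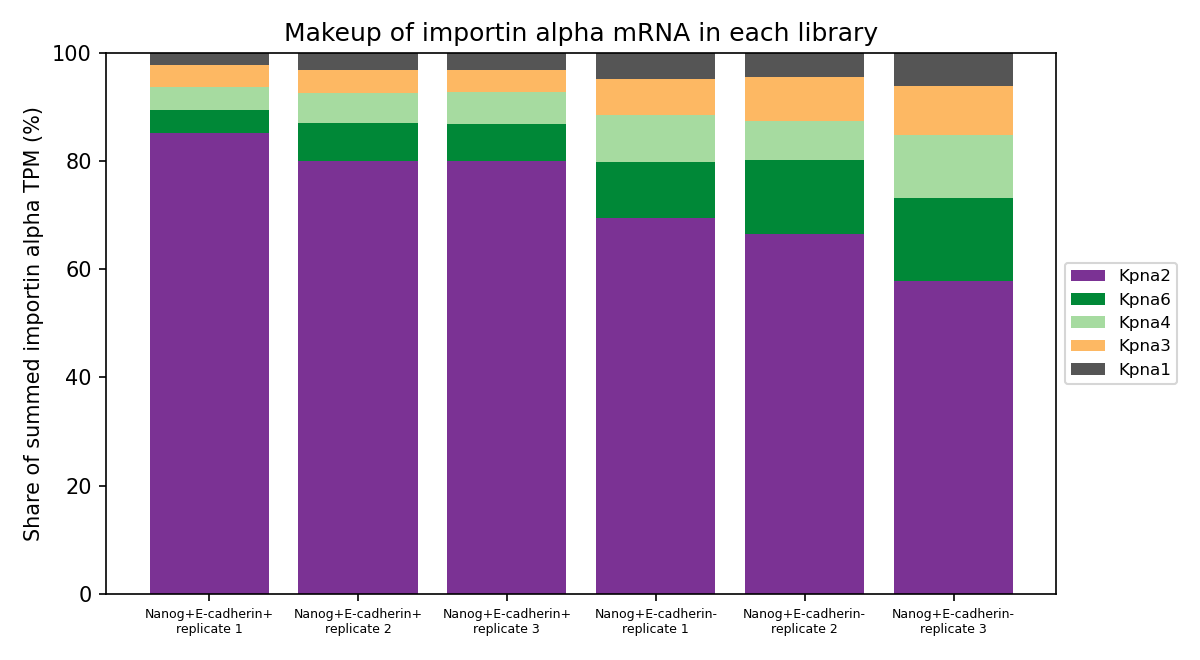
Share of each alpha subunit gene in the summed TPM of Kpna1, Kpna2, Kpna3, Kpna4 and Kpna6, 1 bar per library. Kpna2 takes 80.0% to 85.1% in the 3 N+E+ libraries and 57.9% to 69.4% in the 3 N+E- libraries.

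The ratio of Kpna2 to Kpna1, the pair described in the change of subunits during neural differentiation, followed the same order. It was 37.1, 25.4 and 25.1 in N+E+ replicates 1 to 3 and 14.7, 14.7 and 9.49 in N+E- replicates 1 to 3, in TPM. Kpna2 thus exceeded Kpna1 in every library of both populations. The summed alpha TPM was 3.04, 2.37 and 2.51 times that of Kpnb1 in N+E+ replicates 1 to 3, and 1.42, 1.44 and 1.38 times in N+E- replicates 1 to 3. The second set varied little (SD 0.0302, against 0.353 in the first). Kpna2 was chosen for its difference, while Kpna1 and Kpnb1 overlapped between the populations. The order of these ratios therefore restates the Kpna2 difference and is not separate evidence of a change of subunits.

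Of the 22 genes of a G2-M list, which holds Cdk1, Plk1 and Top2a but not Kpna2, 13 were among the 100 genes whose profile was most like that of Kpna2, and 3 (Prc1, Top2a and Aurkb) were among the nearest 10. Likeness was the root mean square difference between log2 CPM values centred on each gene's mean over the 6 libraries, among 10415 other genes of at least 5 CPM on average. All 22 listed genes were among those compared. This measure mostly follows the difference between the populations, for which Kpna2 was chosen, so nearness largely means a similar fold change. The log2 fold changes of the 10 nearest genes were 1.06 to 1.44, and their nearness is not separate evidence about Kpna2. The 10 nearest were Depdc1a (0.09), Troap (0.10), Kif18b (0.13), Prc1 (0.14), Top2a (0.16), Nek2 (0.19), Aurkb (0.19), Fam83d (0.20), Arl6ip1 (0.21) and Gsg2 (0.21), against a median of 0.78 over all genes compared. Prc1 bundles the microtubules of the central spindle, Top2a untangles replicated DNA, Nek2 acts at the centrosome, Aurkb is the kinase of the chromosomal passenger complex and Gsg2 (haspin) phosphorylates histone H3 in mitosis. Among the members Kpnb1 was nearest to Kpna2 (0.64) and Kpna6 farthest (0.82). After each group's mean was removed, the 5 nearest genes were Hspa8, Sec14l1, Chmp5, Rnpep and Scamp3 (0.01 to 0.03), none of them in the G2-M list. Since Kpna2 varied by 0.14 within groups, many genes lie close to it on that measure.

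**Figure D4:**
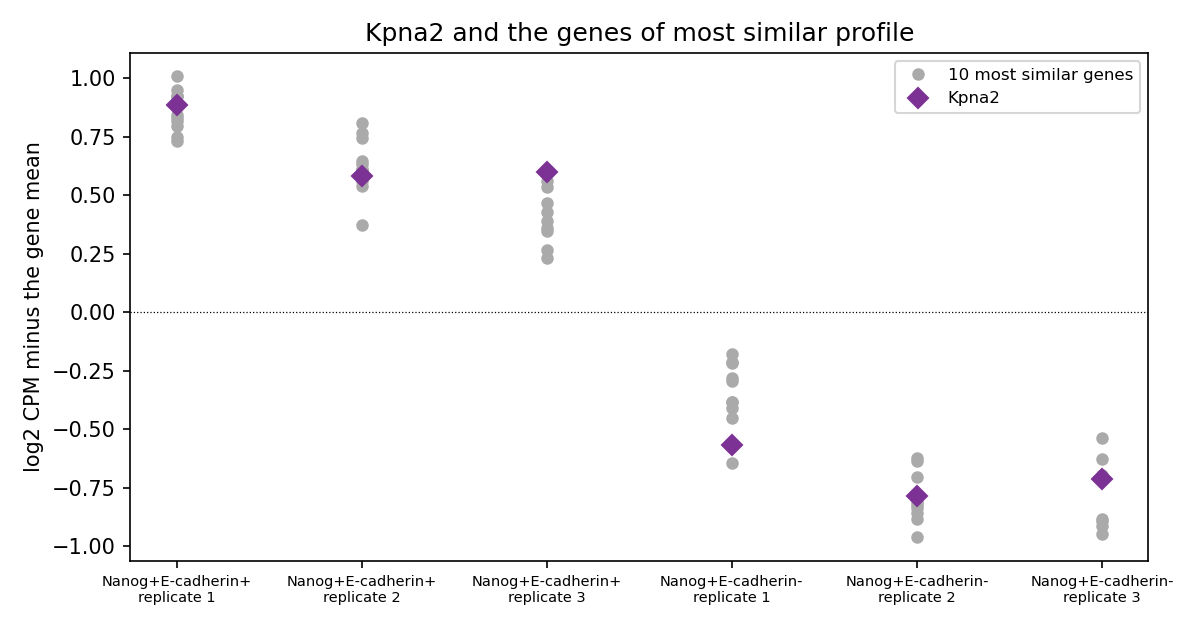
log2 CPM minus each gene's mean over the 6 libraries, for Kpna2 (purple) and the 10 genes nearest to it (grey), 1 column per library. Kpna2 lies at 0.58 to 0.88 in the N+E+ libraries and at -0.78 to -0.57 in the others.

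The difference in Kpna2 stood inside the range of the G2-M genes. All 22 listed genes were fitted higher in N+E+ cells (median log2 fold change 1.02), while the median of all 13460 genes was -0.01. In edgeR's test with group only 0 of the 22 passed, and 16 had an unadjusted p under 0.05, where 1.08% of all genes were higher at that p. With the block 10 passed on the higher side, Prc1, Top2a and Aurkb among them, against 0.215% of all genes. Of the 22, 3 had a larger log2 fold change than Kpna2. The list's median log2 ratio was 1.11, 1.13 and 0.70 in pairs 1, 2 and 3, against 1.45, 1.37 and 1.31 for Kpna2. Relative to the mean log2 CPM of the 22 genes, Kpna2 lay 1.61, 1.80 and 2.03 higher in N+E+ replicates 1 to 3 and 1.24, 1.52 and 1.42 higher in N+E- replicates 1 to 3. These 2 sets did not overlap, but Kpna2 was chosen for its difference in these same libraries, so their separation is not separate evidence about it. The part of the G2-M genes in the Kpna2 difference was not tested.

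The promoter letters found for Kpna2 were common in that list. Of 19 windows matched to 18 of the G2-M genes, 16 held a CHR together with a CCAAT box, a combination found in 7.53% of all windows. The 54 bases around the first CHR match of the window are shown for Kpna2 and for Prc1 and Top2a, the listed genes among its 10 nearest with a matched window (GRCm38.p6, chr11:106999531-106999584 on the minus strand, chr7:80294422-80294475 on the plus strand and chr11:99024339-99024392 on the minus strand), with capitals as above.
Kpna2: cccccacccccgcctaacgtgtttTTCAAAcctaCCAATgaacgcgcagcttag
Prc1: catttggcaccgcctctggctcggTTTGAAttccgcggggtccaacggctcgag
Top2a: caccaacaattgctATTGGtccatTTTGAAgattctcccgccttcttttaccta
In Kpna2 a CCAAT box lay just downstream of the CHR, and in Top2a, whose window held 4 CHR and 6 CCAAT matches, one lay just upstream of the match shown.

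Around the importins, 5 lists of nuclear transport genes held 72 genes in all, of which 70 passed the filter on low counts, and 0 passed edgeR's test at an adjusted p of 0.05 with group only. At an unadjusted p under 0.05 there were 5, all higher and all in the list of spindle factors, where 1.08% of all genes were higher at that p. At an adjusted p of 0.05 DESeq2's Wald test called 0 of 72 and limma-voom 0 of 70. At an unadjusted p under 0.05 in either direction, DESeq2's Wald test had 6 of 72, against 694 of all 18246 genes. limma-voom had 5 of 70, against 256 of all 13460 genes. With the replicate block 1 of 70, the microtubule-binding Nusap1, passed edgeR's test on the higher side, against 0.215% of all genes. Of the importin beta family, 10 of 19 were fitted higher and 9 lower (median log2 fold change 0.03). Cse1l, the exportin of importin alpha, stood at 204, 165 and 161 CPM in N+E+ replicates 1 to 3 and at 143, 110.5 and 161 CPM in N+E- replicates 1 to 3, a log2 fold change of 0.35 ± 0.23 (SE) that did not pass. Its pairs numbered 1 and 2 had log2 ratios of 0.51 and 0.58, and the pair numbered 3 one of -0.006. Xpo1, the main exportin of proteins, had a log2 fold change of 0.17 ± 0.22, and the importins Ipo5 and Tnpo1 had 0.04 ± 0.25 and -0.07 ± 0.26 (SE). Those of smallest p otherwise were Ranbp6 (-0.72 ± 0.35), lower without overlap as were 3.25% of all genes, Xpo7 (-0.33 ± 0.23) and Ranbp17 (0.59 ± 0.44), none of which passed.

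In the Ran cycle and its adaptors 6 of 8 tested genes were fitted higher (median log2 fold change 0.19), where 48.5% of all genes were, and 0 passed in either fit. At an unadjusted p under 0.05 in edgeR's test there were 0 with group only and 2 with the block, Rcc1 and Rangap1. Both were higher, where 5.51% of all genes were with the block. Ran itself stood at 1565, 731 and 741 CPM in N+E+ replicates 1 to 3 and at 1328, 736 and 659 CPM in the other group, so the replicate number separated its libraries more than the population did. Rcc1, which loads Ran with GTP on chromatin, had a log2 fold change of 0.33 ± 0.36, and Rangap1, which triggers GTP hydrolysis in the cytoplasm, one of 0.45 ± 0.27 (SE). With the block these 2 were 0.37 ± 0.14 and 0.48 ± 0.14 (SE). Ranbp1 had 0.22 ± 0.51, Ranbp2 -0.37 ± 0.32, Ranbp3 0.19 ± 0.25 and the Ran importer Nutf2 0.18 ± 0.53 (SE). Kpna7, an alpha subunit of the oocyte and early embryo, was below the filter, with expected counts of 1, 0 and 4 in N+E+ replicates 1 to 3 and 0 in the other 3 libraries. Rangrf was also below it, listed at 0 in 4 libraries and at 18.9 and 65.8 CPM in N+E- replicates 1 and 2. Such values can come from how RSEM divides reads between genes, which was not settled here, so they are uncertain and give no direction.

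Nucleoporins, the proteins of the pore, were fitted higher for 24 of 30 genes with a median log2 fold change of 0.17, where 48.5% of all genes were fitted higher. With or without the block, edgeR's test called 0 of the 30. At an unadjusted p under 0.05 there were 0 with group only and 8 with the block, all higher, where 5.51% of all genes were. Nup50 and Nup153, which take part in importin release at the pore basket, stood at log2 fold changes of 0.18 ± 0.19 and -0.20 ± 0.27, and Nup62 of the central channel at 0.24 ± 0.37 (SE). Of the 30 genes 2 were higher with libraries that did not overlap, as were 3.74% of all genes. These were the membrane nucleoporin Tmem48 (0.56 ± 0.25) and Nup133 of the outer ring (0.40 ± 0.19), and Nup35 had 0.85 ± 0.43 (SE).

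Spindle factors that importins hold inactive had the highest median of the 5 lists. Of 6 genes 5 were fitted higher with libraries that did not overlap, as for 3.74% of all genes, and the median log2 fold change was 0.66. Nusap1 stood at 159, 95.2 and 68.9 CPM in N+E+ replicates 1 to 3 and at 49.3, 23.6 and 35.4 CPM in the other group, and rose by 1.55 ± 0.22 (SE) on the log2 scale with the block (adjusted p = 0.0371 in edgeR's test). Its adjusted p did not pass with group only. Tpx2, which Kpna2 itself binds, stood at 261, 245 and 209 CPM against 147, 159 and 143 CPM, a log2 fold change of 0.67 ± 0.20 (SE) that did not pass over all genes. Kif22, Dlgap5 and Kifc1 had 0.65 ± 0.20, 0.62 ± 0.23 and 0.70 ± 0.28, whereas Numa1 had -0.05 ± 0.30 (SE). These are themselves genes of mitosis, so they are not independent of the G2-M list.

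**Figure D5:**
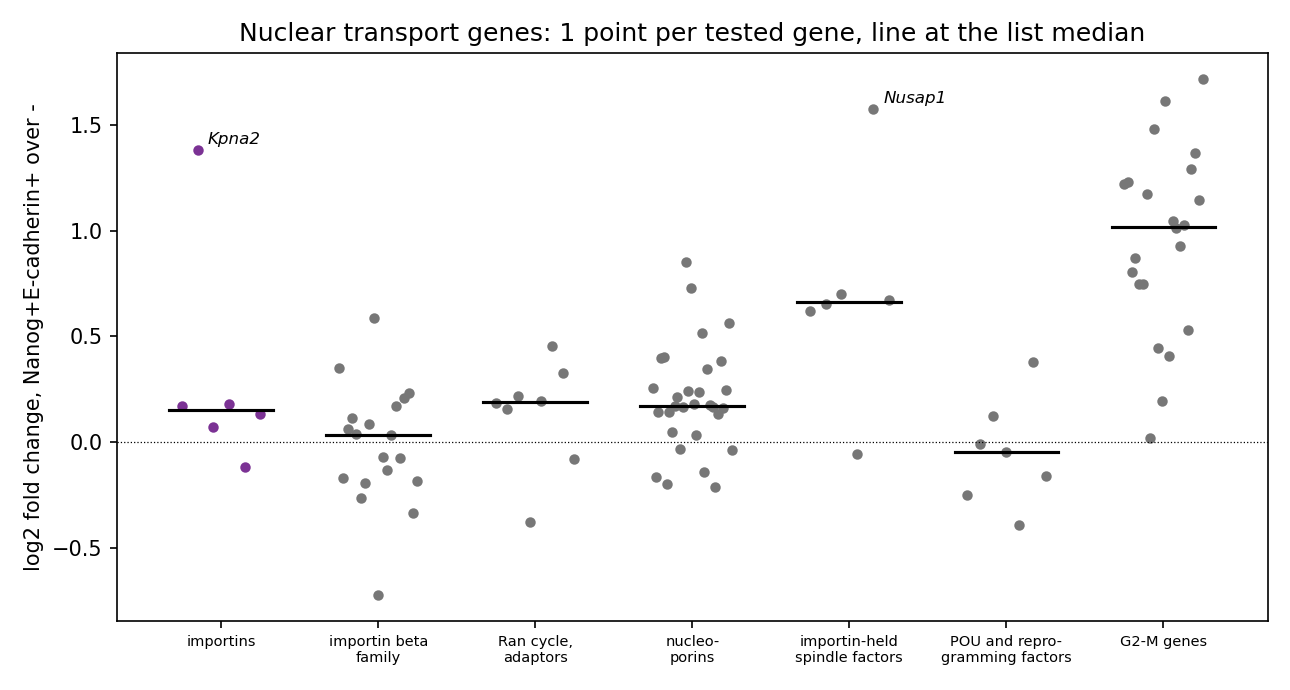
log2 fold change of N+E+ over N+E- for every tested gene of the importins, of 5 nuclear transport lists and of the G2-M list, with a line at each list's median. The importin median is 0.15 with Kpna2 apart at 1.38, and the G2-M median is 1.02.

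Among transcription factors that the importins carry, the libraries of both populations overlapped. Pou5f1 (Oct4), described as a Kpna2 cargo, stood at 548, 283 and 293 CPM in N+E+ replicates 1 to 3 and at 277, 301 and 286 CPM in N+E- replicates 1 to 3. In CPM only the first N+E+ library lay apart, and the log2 fold change was 0.38 ± 0.31 (SE). In TPM Pou5f1 stood at 542, 459 and 433 in N+E+ replicates 1 to 3 and at 293, 485 and 491 in N+E- replicates 1 to 3. On that scale it was N+E- replicate 1 that lay apart. The log2 fold change of Sox2 was -0.16 ± 0.25, of Nanog 0.12 ± 0.25, of Klf4 -0.25 ± 0.29 and of Myc -0.01 ± 0.25 (SE). The counts of the 4 induced factors can include cassette transcripts. The neural POU factors Pou3f1 and Pou3f2 showed -0.05 ± 0.46 and -0.39 ± 0.64 (SE), and none of these 7 genes passed in either fit. Nuclear entry of the proteins was not measured.

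Total expected counts ran from 8851110 to 39630916 per library. The smallest expected count of a member was 284, for Kpna1 in N+E- replicate 2, a counting error of 5.93%, and for Kpna2 the counting error was at most 2.35%. Marker sums were in CPM of library totals. Those of 6 epithelial genes followed the sort, at 234 to 244 CPM in N+E+ and 73.9 to 94.8 CPM in N+E- libraries, and 8 pluripotency genes summed to 197 to 286 against 130 to 173 CPM. The epithelial list holds Cdh1, the gene of E-cadherin, and the pluripotency list holds Nanog, so neither sum is independent of the sort. Neural stem cell markers (8 genes, 1439 to 4330 against 1856 to 4125 CPM), neuron markers (7 genes, 273 to 908 against 457 to 1289 CPM) and fibroblast markers (6 genes, 206 to 3045 against 288 to 1519 CPM) overlapped between the groups, and blood cell markers (5 genes, Hbb-b1 at 0 throughout) reached at most 16.9 CPM. Within equal replicate numbers the neuron marker sum was lower in N+E+ in all 3 pairs, opposite to Kpna2, at 908 against 1289, 462 against 766 and 273 against 457 CPM. Of these 7 genes 6 were fitted lower and 1 higher (median log2 fold change -1.08), where 48.5% of all genes were fitted higher. In edgeR's test 0 passed with group only, and 1, Tubb3, fell with the block, where 0.0892% of all genes did. Of the 8 neural stem cell markers 6 were fitted lower and 2 higher (median log2 fold change -0.32), and 0 passed in either fit. Of these 8 genes 2 were lower without overlap, as were 3.25% of all genes. The part of the marker genes in the importin values was not tested. Reads on 1119 olfactory receptor genes summed to 878 and 585 CPM in N+E- replicates 2 and 3 and to 18.9 to 92.9 CPM in the other 4 libraries. Without those 2 libraries, with N+E- replicate 1 alone in its group and assumed to vary like the others, the log2 fold change of Kpna2 was 1.26 ± 0.38 (SE) and its share of the alpha pool differed by 12.3 percentage points in place of 17.2. That setting was chosen after the data were seen. The pair numbered 1, in which neither library was raised, had a Kpna2 log2 ratio of 1.45, and pairs 2 and 3 had 1.37 and 1.31. The part of the olfactory receptor reads in the Kpna2 values was not tested. Whether the replicates are separate cultures or animals is not stated in the labels, and the errors measure the spread between these libraries only.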

How the data were processed

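Bowtie, RSEM 1.2.4 and build mm9 are named, with no role given, per the submitters' processing notes. Their settings, and whether counting used strand, are not stated there. The deposited files hold expected counts, TPM and FPKM per gene, per the file headers. The authors' expected counts were rounded to whole numbers for edgeR 4.0.16 in R 4.3.3 (TMM, filterByExpr with minimum count 10 and minimum total 15, quasi-likelihood, Benjamini-Hochberg over all 13460 genes tested, adjusted p under 0.05), with group as the only term. The authors' TPM values gave levels between genes and, on a log2 scale with pseudocounts of 1 and 0.1, input for limma 3.58.1. The authors' FPKM values served 1 alternative. Since RSEM splits ambiguous reads between genes, near-identical copies are uncertain.

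Same-numbered libraries had correlated deviations from their group means (0.71, 0.38 and 0.43, all above 0.1), so the replicate number was also fitted as a block. The pairing comes from these values, not from the labels. The steps were tested on simulated data. The members, the lists and the rule for named genes were chosen with earlier results of these data known. The rule names the 6 members, key genes of each of the 5 nuclear transport lists with the 3 further genes of smallest p, genes of those lists that passed with or without the block, and the 10 and 5 genes most like Kpna2 by the 2 likeness measures. Kifc1, Nup43 and Tubb3 were named after their values were seen. Alternatives were DESeq2 1.42.0 (size factors, Wald test), library totals, no filter on low counts, limma-voom, TPM scales and leaving out libraries. Coordinates on mm9 are not printed.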

Additional observations from a re-analysis of the deposited data

How the results depend on the processing

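The log2 fold change of Kpna2 stayed within its within-group SD of the reported value under all 18 alternatives (1.26 to 1.46), and between 1.28 and 1.46 when each library was left out in turn. Kpna1 (0.01 to 0.40) and Kpnb1 (0.02 to 0.22) stayed above 0 in all 18, while Kpna3 (-0.07 to 0.32), Kpna4 (-0.01 to 0.46) and Kpna6 (-0.25 to 0.22) lay on both sides of 0. The difference in the Kpna2 share of the alpha pool was 17.2 percentage points by TPM, 22.1 by expected counts, 12.3 without N+E- replicates 2 and 3, and 13.8 to 19.6 without each library in turn. Counts of calls moved with the replicate block. The 70 nuclear transport genes gave 0 calls with group only and 1 with the block, and all genes gave 0 and 41. With the block and 2 pairs, the counts were 1 and 182 when pair 1 was left out, 2 and 140 when pair 2 was, and 9 and 449 when pair 3 was. Over all genes, DESeq2's Wald test called 14 and edgeR without a filter on low counts 1. Without each single library both counts were 0 with group only. The cause was not tested. Of the calls described for edgeR's test, the block added those of Kpna2, Nusap1, Tubb3 and 10 of the 22 G2-M genes. Without a block, DESeq2's Wald test also called Kpna2. The 9 transport genes without pair 3 were Cse1l, Dlgap5, Kif22, Kifc1, Nup35, Nup43, Nusap1 and Tpx2, all higher, and Rangrf, lower and uncertain as described, and without pair 2 Kifc1 passed beside Nusap1.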
